A study of Mus musculus with 12 samples.

Results

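The genes followed here are 10 genes of the smooth muscle contractile apparatus, which myoepithelial cells share, in sorted epithelial cells of the embryonic mouse salivary gland. They comprise the actins Acta2 and Actg2, the myosin heavy chain Myh11, the myosin light chain kinase Mylk, the actin-binding proteins Tagln, Cnn1 and Cald1, the tropomyosins Tpm1 and Tpm2, and the transcriptional coactivator Myocd. The 10 genes were listed by name. All 10 were found among the 43280 gene symbols of the count matrix, and all 10 were among the 17030 genes with enough counts to be tested.

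The cells came from submandibular glands of embryos at day 15 of gestation, of the strain Tg(KRT5-Venus)1Sgkd. All 12 libraries carry this transgene, in which the keratin 5 promoter drives the fluorescent protein Venus, so that "K5" below stands for Venus fluorescence and not for keratin 5 protein. E-cadherin-positive cells were sorted by flow cytometry on the receptor tyrosine kinase Kit and on Venus into double positives (Kit+ K5+), double negatives (Kit- K5-) and the single positives Kit+ K5- and Kit- K5+, with 3 libraries of total RNA in each of the 4 groups, read as single 50 nt reads. How many embryos or litters went into each library was not stated, so that p-values measure only the spread between these samples, which may be technical. Libraries are called 1, 2 and 3 within a group, by the order of their library numbers. Levels are given in CPM, the the counts of a gene relative to all counts of its scaled library (edgeR cpm values).

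In smooth muscle, force comes from myosin that pulls on filaments of alpha and gamma smooth muscle actin once myosin light chain kinase has phosphorylated the regulatory light chain. Calponin, caldesmon and the tropomyosins sit on the actin filament and tune this cycle, and transgelin binds and bundles actin. Many of these genes carry CArG boxes, the binding motif of serum response factor, which switches them on together with myocardin or the related coactivators of the MRTF family. Myoepithelial cells are contractile epithelial cells that wrap the secretory end pieces and ducts of salivary glands, arise from keratin 5 and keratin 14 positive basal cells, and take on the smooth muscle programme while keeping their keratins.

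The region before the start of Acta2 is shown with the corresponding stretches of Mylk and Cnn1. These 3 are shown because they shared a steep difference between Kit- K5+ libraries. Per kilobase of summed exons, Acta2 had the highest level of the members in a Kit- K5+ library. This order depends on the length used. The stretches are from RefSeq on GRCm38.p6, 5′ to 3′ on the strand of the gene, and capitals mark CArG boxes (CC, then 6 bases that are A or T, then GG), with 1 G or C allowed among the 6.
Acta2 (chr19:34255374-34255493, minus strand): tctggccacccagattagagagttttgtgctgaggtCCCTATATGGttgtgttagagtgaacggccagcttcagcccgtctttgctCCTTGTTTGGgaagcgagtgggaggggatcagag
Mylk (chr16:34784830-34784949, plus strand): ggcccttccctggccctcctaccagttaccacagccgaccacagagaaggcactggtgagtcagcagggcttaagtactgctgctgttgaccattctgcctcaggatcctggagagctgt
Cnn1 (chr9:22099133-22099252, plus strand): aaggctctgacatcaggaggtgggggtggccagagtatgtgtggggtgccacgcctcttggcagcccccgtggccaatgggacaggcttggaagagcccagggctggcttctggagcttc

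The windows searched ran from 250 bases before to 50 bases after each start, and the motif reads the same way on both strands. Windows matched 6 of the 10 genes, namely Acta2, Cnn1, Mylk, Cald1, Tpm1 and Tpm2, with 7 windows in all because Cald1 has 2 starts among them. The Mylk window, chr16:34784700-34784999, lies inside the gene at chr16:34745210-35002420, so that the upstream end of Mylk was not searched. Starts are those of RefSeq, and gene positions are those of GENCODE, which do not always agree. The Acta2 stretch shown lies inside the gene at chr19:34241090-34255590, and its window, chr19:34255324-34255623, reaches little past that end. The Cnn1 stretch shown runs past the gene start at chr9:22099216. The Cald1 window chr6:34709194-34709493 also lies inside its gene, chr6:34598500-34775473. Most of the Tpm1 and Tpm2 windows lies inside the genes as well. The Acta2 window held 2 boxes, beginning 84 and 34 bases before the start, each with 1 G or C in its core. None of the 7 windows held a box with a core of A and T alone. Among all 32851 promoter windows, 1.63% held such a box and 9.98% held a box of either kind. A match is a description of letters, and its absence says only that these letters are not in the window.

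The libraries held 5589037 to 13724364 counts. Kit separated the groups as sorted, at 283 to 445 CPM in the 6 Kit+ libraries and 10.03 to 26.4 CPM in the 6 Kit- libraries. Krt5 itself was low, at 13.5 to 22.9 CPM in Kit- K5+ libraries against 0.317 to 9.93 CPM in the other 9, and its Kit+ K5+ and Kit+ K5- values overlapped. The E-cadherin gene Cdh1 was at 149 to 198 CPM in Kit- K5- libraries, below the 503 to 1111 CPM of the other 9. The 12 mesenchyme markers summed to 11559 to 19030 CPM in Kit- K5- libraries and to 593 to 1122 CPM elsewhere, and the 10 pericyte and vascular smooth muscle markers to 899 to 1489 CPM against 130 to 188 CPM. As a comparison group Kit- K5- thus carried more RNA of mesenchymal marker genes than the other groups, and the part of this in the results below was not tested. Mitochondrial transcripts took 24.2% to 30.6% of counts in Kit- K5+ libraries and 5.59% to 12.2% in Kit- K5- libraries.

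Both smooth muscle actins were highest in Kit- K5+ cells, and their 3 libraries differed widely. Acta2, alpha smooth muscle actin (chr19:34241090-34255590), stood at 704, 124 and 26.4 CPM in Kit- K5+ libraries 1, 2 and 3. It was at 42.0, 21.3 and 16.5 CPM in Kit+ K5+, at 5.07, 12.6 and 14.4 CPM in Kit+ K5-, and at 29.9, 23.8 and 17.7 CPM in Kit- K5- libraries. Library 3 of Kit- K5+ therefore lay inside the range of the Kit+ K5+ and Kit- K5- libraries, and libraries 1 and 2 lay above all others. Actg2, the gamma smooth muscle actin of gut and bladder muscle (chr6:83512905-83536265), stood at 45.8, 10.9 and 4.40 CPM in Kit- K5+ libraries 1, 2 and 3. Its values were 1.94, 4.05 and 2.71 CPM in Kit+ K5+ libraries, 1.06, 3.69 and 3.50 CPM in Kit+ K5- libraries, and 1.90, 1.38 and 2.35 CPM in Kit- K5- libraries. Here all 3 Kit- K5+ libraries were above the other 9, although library 3 exceeded the highest of them, library 2 of Kit+ K5+, by little.

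The smooth muscle myosin and its kinase followed the actins. Myh11, the heavy chain of smooth muscle myosin (chr16:14194535-14291372), was at 24.3, 9.20 and 5.55 CPM in the Kit- K5+ libraries and at 1.53 to 4.54 CPM in the other 9, without overlap. Its single values were 2.67, 3.66 and 1.55 CPM in Kit+ K5+ libraries, 4.54, 2.74 and 2.04 CPM in Kit+ K5- libraries, and 1.71, 3.60 and 1.53 CPM in Kit- K5- libraries. Mylk, whose product switches myosin on (chr16:34745210-35002420), was at 174, 24.9 and 16.1 CPM in Kit- K5+ libraries. It was at 15.9, 5.98 and 8.01 CPM in Kit+ K5+, at 10.6, 3.69 and 3.79 CPM in Kit+ K5-, and at 32.4, 16.6 and 10.5 CPM in Kit- K5- libraries. Mylk in Kit- K5+ cells exceeded every Kit+ library, and its libraries 2 and 3 fell inside the range of the Kit- K5- libraries. Mylk overlaps 3 antisense genes, and the sources used here do not give the strand setting of the counting, so that reads from them cannot be told apart.

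Among the thin-filament proteins, Tagln and Cnn1 showed the same steep library 1, and Cnn1 rested on it almost alone. Tagln, transgelin (chr9:45929619-45936058), was at 62.4, 12.5 and 4.78 CPM in Kit- K5+ libraries, at 1.84, 3.57 and 7.49 CPM in Kit+ K5+, at 3.38, 3.37 and 2.91 CPM in Kit+ K5-, and at 3.67, 5.90 and 5.003 CPM in Kit- K5-. Library 3 of Kit- K5+ thus lay within the Kit- K5- values. Of the 50-base stretches of Tagln transcripts, 44.5% also lie in the antisense gene Gm48529, which leaves its counts uncertain. Cnn1, calponin 1 (chr9:22099216-22109630), was at 31.0 CPM in Kit- K5+ library 1, from 248 counts, and at 0.687 and 0.765 CPM in libraries 2 and 3, from 5 and 4 counts. In the other groups Cnn1 ranged from 0 to 2.43 CPM, and the 2 libraries at 0 counts allow up to 0.388 and 0.306 CPM, the level of 3 counts.

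Cald1, Tpm1 and Tpm2, which also give rise to forms made in non-muscle cells, were expressed in every group, and Cald1 and Tpm1 were spread far less. Cald1, caldesmon (chr6:34598500-34775473), was at 419, 418 and 235 CPM in Kit- K5+ and at 334, 345 and 273 CPM in Kit- K5- libraries. It was at 109, 144 and 184 CPM in Kit+ K5+ and at 106, 118 and 158 CPM in Kit+ K5- libraries. All 6 Kit- libraries were above all 6 Kit+ libraries, whatever their Venus gate. Tpm1, tropomyosin 1 (chr9:67022590-67049406), was at 1100, 740 and 581 CPM in Kit- K5+ libraries and at 519 to 671 CPM in the other 9, so that library 3 lay inside their range. Tpm2, tropomyosin 2 (chr4:43514711-43523765), was at 152, 78.4 and 22.2 CPM in Kit- K5+ and at 80.7, 76.2 and 44.2 CPM in Kit- K5- libraries, against 8.03 to 33.5 CPM in the 6 Kit+ libraries.

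Myocd, myocardin (chr11:65176561-65269989), was close to the limit of detection. It had 18, 0 and 10 counts in the Kit- K5+ libraries, 0, 0 and 4 in Kit+ K5+, 11, 0 and 7 in Kit+ K5-, and 2, 13 and 0 in Kit- K5-. The highest level was 2.25 CPM, in Kit- K5+ library 1, and the library at 0 in the same group allows up to 0.412 CPM. No difference in Myocd between groups could be detected at this depth.

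**Figure D1:**
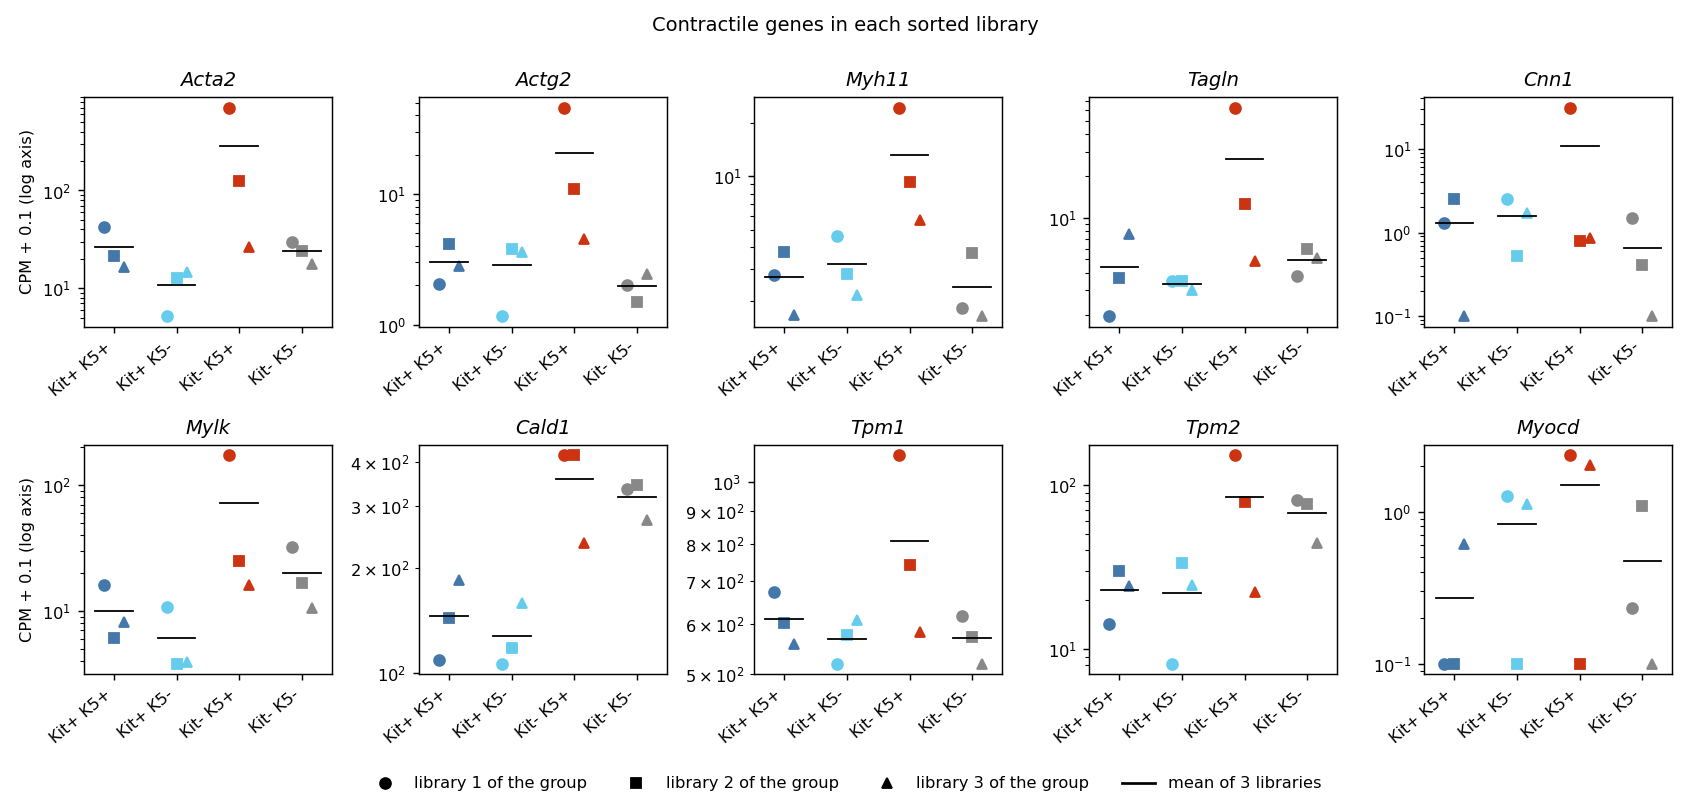
CPM plus 0.1 on a log axis for each of the 10 contractile genes, with 1 point per library (circle, square and triangle for libraries 1, 2 and 3), the 4 sorted groups on the x axis and a bar at the mean of 3 libraries. In all 10 panels the highest point is library 1 of Kit- K5+, for Acta2 at 704 CPM, while library 3 of that group lies at 26.4 CPM, within the values of other groups.

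Per kilobase of exon, the order of the 10 genes was led by Tpm1 in 11 of 12 libraries. In Kit- K5+ library 1 Acta2 ranked first at 321 CPM per kilobase, above Tpm1 at 170, Tpm2 at 52.3 and Cald1 at 34.8. In library 3 of the same group Tpm1 ranked first at 89.6 CPM per kilobase, ahead of Cald1 at 19.5 and Acta2 at 12.02. As group means in Kit- K5+ cells, Acta2 was at 130 ± 167 and Tpm1 at 124 ± 41.0 CPM per kilobase (SD, n = 3), which do not differ beyond their spread. Cald1 at 29.7 ± 8.79 and Tpm2 at 29.0 ± 22.4 were likewise neighbours within their spread. Myh11 at 1.71 CPM per kilobase and Myocd at 0.216 came last. The caldesmon, myosin light chain kinase and Tpm1 genes hold exons of several alternative transcripts, which lengthens the summed exon length and lowers these values. Summed exons span 6485 bases for Tpm1, whose longest coding transcript holds 2841 overlapping stretches of 50 bases, against 2196 and 1986 for Acta2. The order of Acta2 and Tpm1 in Kit- K5+ library 1 therefore depends on the length used.

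The Kit- K5+ libraries were the most uneven group for these genes. All 10 had their highest CPM of the 12 libraries in Kit- K5+ library 1, where 10.6% of the genes tested were highest. In 8 of the 10, library 1 was the highest and library 3 the lowest of the Kit- K5+ libraries, as in 19.2% of the genes tested, and the exceptions were Cnn1 and Myocd. All 3 Kit- K5+ libraries were above the other 9 for 2 of the 10 genes, Actg2 and Myh11, beside 2.04% of the genes tested. The ratio of the highest to the lowest Kit- K5+ library was 45.1 for Cnn1, 26.7 for Acta2, 13.05 for Tagln, 10.8 for Mylk, 10.4 for Actg2, 6.86 for Tpm2, 4.37 for Myh11, 1.89 for Tpm1 and 1.78 for Cald1. Its median over these 9 genes was 10.4, and Myocd has no ratio because a library is at 0.

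On the log2 scale, the median difference between the highest and the lowest library was 3.37 over the 10 genes in Kit- K5+ cells, beside 0.96 over all genes tested. The same medians were 1.23 and 0.84 in Kit+ K5+, 1.47 and 0.88 in Kit+ K5-, and 0.81 and 0.64 in Kit- K5- cells. In Kit- K5+ cells, 0.458% of the genes tested had a wider range than Acta2 and 0.229% a wider range than Cnn1, whereas 56.6% were wider than Cald1 and 52% wider than Tpm1. Cald1 and Tpm1, the members with the highest CPM outside Kit- K5+ cells, thus spread like the middle of all genes.

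**Figure D2:**
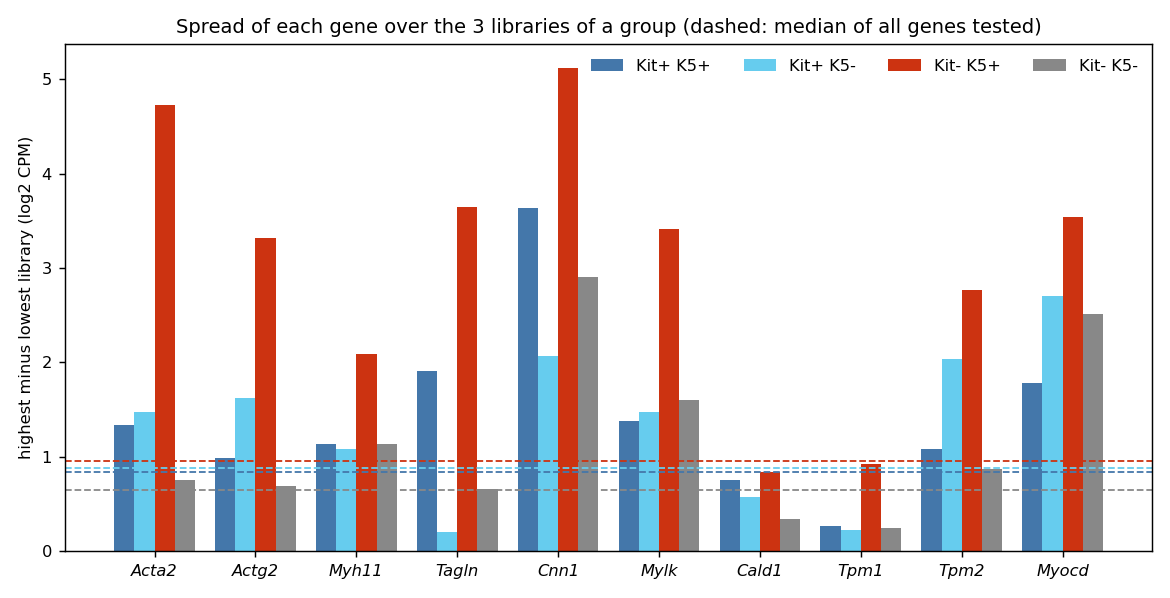
Highest minus lowest library in log2 CPM (bars) for each gene in each of the 4 groups, with dashed lines at the median of all 17030 genes tested in that group. The Kit- K5+ bars reach 4.73 for Acta2 and 5.12 for Cnn1, and stay under the dashed line at 0.96 for Cald1 and Tpm1.

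Summed levels of most marker lists of other cells did not share this order, though single markers did. The pericyte and vascular smooth muscle markers summed to 144, 188 and 180 CPM in Kit- K5+ libraries 1, 2 and 3, lowest in the library where the contractile genes were highest. Of these 10 markers 1, Kcnj8, had library 1 highest and library 3 lowest, at 1.25, 0.824 and 0.191 CPM, beside 19.2% of the genes tested. Cspg4 and Abcc9 were also highest in library 1. In library 1 the pericyte markers Rgs5, Pdgfrb and Abcc9 stood at 0.5, 5.88 and 12.003 CPM, against 12.4 to 18.3, 181 to 362 and 363 to 632 CPM in Kit- K5- libraries. Des, the muscle intermediate filament desmin, was at 0.75, 0 and 1.15 CPM in Kit- K5+ libraries. Mesenchyme markers summed to 913, 1122 and 848 CPM, with library 1 highest and library 3 lowest for 2 of 12, Col1a1 and Pdgfra, beside the same 19.2%. Endothelial markers summed to 17.4, 10.9 and 25.4 CPM, and skeletal and cardiac muscle markers to 103, 108 and 95.3 CPM. General epithelial genes summed to 1879, 1884 and 1620 CPM, with library 1 highest and library 3 lowest for 6 of 18. The sums that did share the order were those of basal and myoepithelial epithelium, at 1550, 1298 and 1001 CPM, of 18 further contractile genes, at 3417, 2556 and 1852 CPM, and of 13 non-muscle counterparts of the contractile proteins, at 6403, 4834 and 3651 CPM. Single genes shared it in 4 of 8, 10 of 18 and 6 of 13 cases, beside 19.2% of the genes tested. Beta-actin, Actb, alone made up most of the non-muscle sum, at 4663, 3395 and 2411 CPM. Within the basal list Krt14 was at 133, 83.9 and 54.3 CPM, Krt17 at 21.6, 11.5 and 7.84 CPM and Col17a1 at 305, 153 and 152 CPM, while Trp63, at 460, 488 and 300 CPM, and Egfr, at 272, 305 and 298 CPM, were not highest in library 1. The oxytocin receptor gene Oxtr, a further myoepithelial marker, was at 0.625, 0 and 0 CPM. In sorted bulk samples, fewer cells of a type and less RNA per cell cannot be told apart, and the part of the basal markers and of the non-muscle genes in the spread was not tested.

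**Figure D3:**
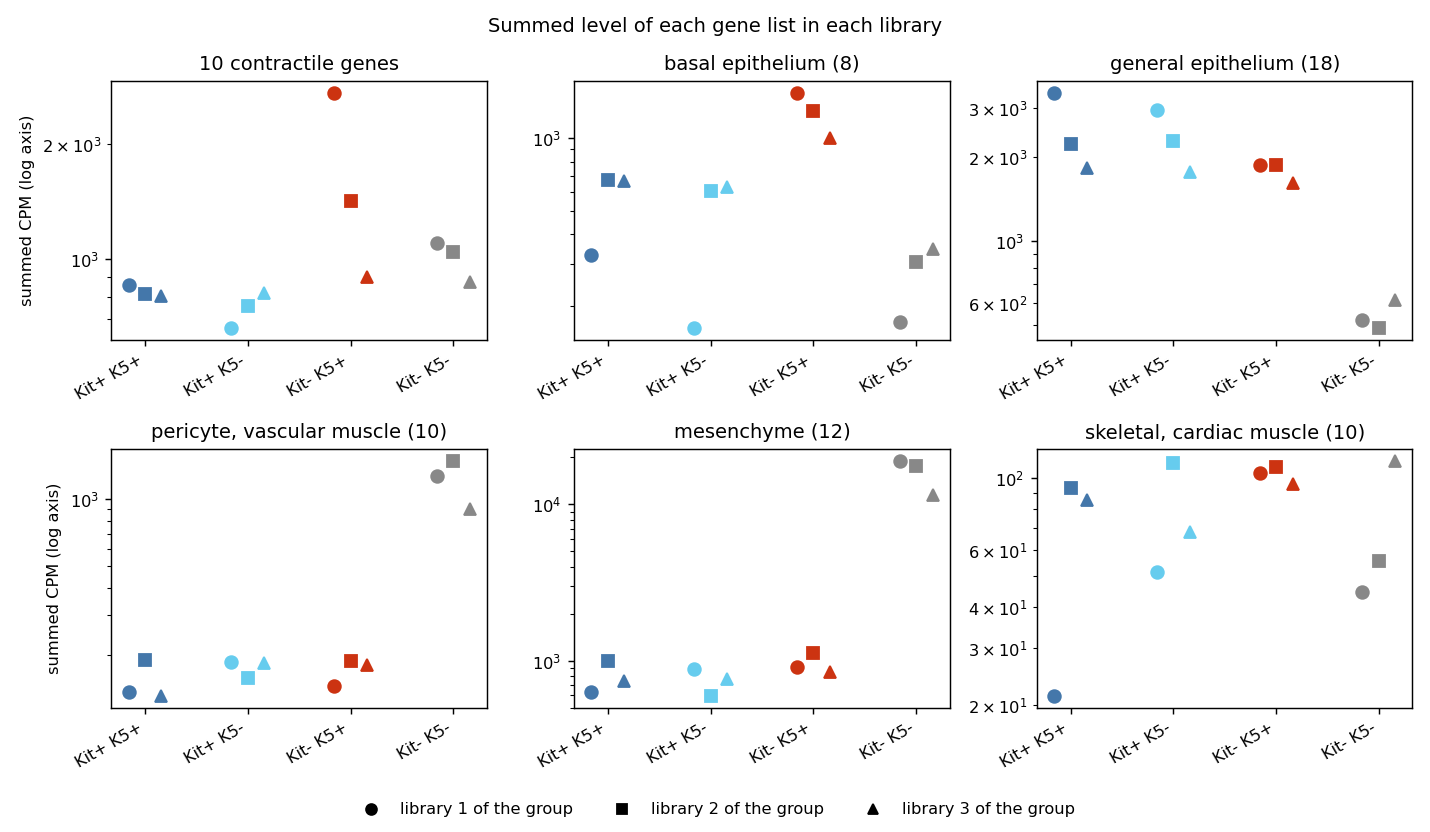
Summed CPM on a log axis of the 10 contractile genes and of 5 marker lists (number of genes in brackets) in each library, by group. The contractile sum is 2714, 1419 and 898 CPM in Kit- K5+ libraries 1, 2 and 3 and the basal sum 1550, 1298 and 1001 CPM, while the pericyte sum stays between 144 and 188 CPM and the mesenchyme sum between 848 and 1122 CPM.

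The comparison of Kit- K5+ with Kit- K5- cells asks what goes with Venus when Kit is absent, and here 4 of the 10 genes rose at an adjusted p below 0.05 and none fell, beside 7.38% of the genes tested that rose and 9.1% that fell. They were Actg2 (log2 difference 3.44 ± 0.77 SE, adjusted p = 0.00839), Acta2 (3.58 ± 0.85, adjusted p = 0.0116), Myh11 (2.51 ± 0.63, adjusted p = 0.0153) and Tagln (2.45 ± 0.74, adjusted p = 0.0379). Mylk at 1.85 ± 0.76 (adjusted p = 0.116) and Cnn1 at 4.18 ± 1.55 (adjusted p = 0.0821) did not pass. Tpm1 at 0.50 ± 0.22 (unadjusted p = 0.0360, adjusted p = 0.132) did not pass either. Tpm2 at 0.33 ± 0.57 and Cald1 at 0.17 ± 0.26 lay within their standard errors of 0. The median over the 10 genes was 2.15, beside 0.04 over all genes tested. In the same comparison 6 of 8 basal and myoepithelial markers rose, with a median of 2.68, and 9 of 18 general epithelial genes, with a median of 1.36, and their part in the rise of the contractile genes was not tested. All 3 Kit- K5+ libraries were above all 3 Kit- K5- libraries for 2 of the 10 genes, Actg2 and Myh11, beside 17% of the genes tested.

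Taken run by run, where a run is the 4 libraries of every group with neighbouring library numbers, the difference of Acta2 was 4.55, 2.38 and 0.57 in runs 1, 2 and 3, that of Actg2 4.44, 2.80 and 0.85, and that of Myh11 3.67, 1.30 and 1.72. Tagln gave 4.01, 1.06 and -0.06. All 3 runs pointed the same way for the actins and the myosin, by amounts that differed several fold. Without Kit- K5+ library 1, 0 of the 10 genes passed, and the differences were 1.66 for Acta2 (adjusted p = 0.0835), 2.02 for Actg2 (adjusted p = 0.0648), 1.68 for Myh11 (adjusted p = 0.0934) and 0.83 for Tagln (adjusted p = 0.39). With the run as a block, Mylk passed (1.34 ± 0.39, adjusted p = 0.0245) and Tagln did not (adjusted p = 0.0572), again 4 of 10, beside 11% of the genes tested that rose. With the block and without library 1, a setting chosen after seeing the data, Myh11 alone passed (1.78 ± 0.55, adjusted p = 0.0406). When libraries were scaled to 18 genes of epithelial cells in general, which moved the median of all genes by -1.74, 1 member was higher and 3 were lower, namely Cald1 at -1.60, Tpm1 at -1.26 and Tpm2 at -1.49.

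Against Kit+ K5- cells, with both gates reversed, 3 of the 10 genes were higher in Kit- K5+ cells and none was lower, beside 1.17% of the genes tested that were higher. They were Acta2 (4.74 ± 0.91, adjusted p = 0.0209), Mylk (3.56 ± 0.83, adjusted p = 0.0414) and Cald1 (1.49 ± 0.27, adjusted p = 0.0189). Tagln at 3.04 ± 0.77 (adjusted p = 0.0535), Actg2 at 2.89 ± 0.75 (adjusted p = 0.0594) and Myh11 at 2.06 ± 0.62 (adjusted p = 0.0943) missed the threshold. The median over the 10 genes was 2.46, beside 0.03 over all genes tested. All 3 Kit- K5+ libraries were above all 3 Kit+ K5- libraries for Acta2, Actg2, Myh11, Tagln, Mylk and Cald1, 6 of the 10 genes, beside 9.28% of the genes tested. None of the 3 calls held without Kit- K5+ library 1, where Acta2 was at 2.82 (adjusted p = 0.0678), Cald1 at 1.35 (adjusted p = 0.0664) and Mylk at 1.76 (adjusted p = 0.169), and none held without Kit+ K5- library 2. One call remained without Kit+ K5- library 1 or Kit- K5+ library 2, and 6 genes were called without Kit- K5+ library 3. With the run as a block, for comparison only since pairing by run was least even for these libraries, 5 of the 10 were higher, with Myh11 and Tagln added, beside 3.35% of the genes tested.

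Between Kit+ K5+ and Kit- K5+ cells, which share the Venus gate, Cald1 was the only member called, lower with Kit at -1.30 ± 0.26 (adjusted p = 0.0458), beside 0.323% of the genes tested that were lower. The estimates for the actins, Mylk and Myh11 were larger and less certain. They were -3.42 ± 0.85 for Acta2 (adjusted p = 0.0745), -2.81 ± 0.75 for Actg2 (adjusted p = 0.0898), -2.84 ± 0.80 for Mylk (adjusted p = 0.10) and -2.30 ± 0.62 for Myh11 (adjusted p = 0.0932). All 3 Kit- K5+ libraries were above all 3 Kit+ K5+ libraries for Actg2, Myh11, Mylk and Cald1, 4 of the 10 genes, beside 10.3% of the genes tested. The median over the 10 genes was -2.73, beside -0.05 over all genes tested. With the run as a block, 4 of the 10 were lower with Kit, beside 2.08% of the genes tested: Mylk (-2.32 ± 0.41, adjusted p = 0.0113), Cald1 (-1.30 ± 0.26, adjusted p = 0.0194), Myh11 (-2.19 ± 0.52, adjusted p = 0.0351) and Acta2 (-2.98 ± 0.74, adjusted p = 0.0418). DESeq2 called 7. The call of Cald1 without the block was lost on leaving out any of Kit+ K5+ libraries 1, 2 or 3 or Kit- K5+ libraries 1 or 2, at adjusted p from 0.0583 to 0.174 and differences from -1.47 to -1.09.

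**Figure D4:**
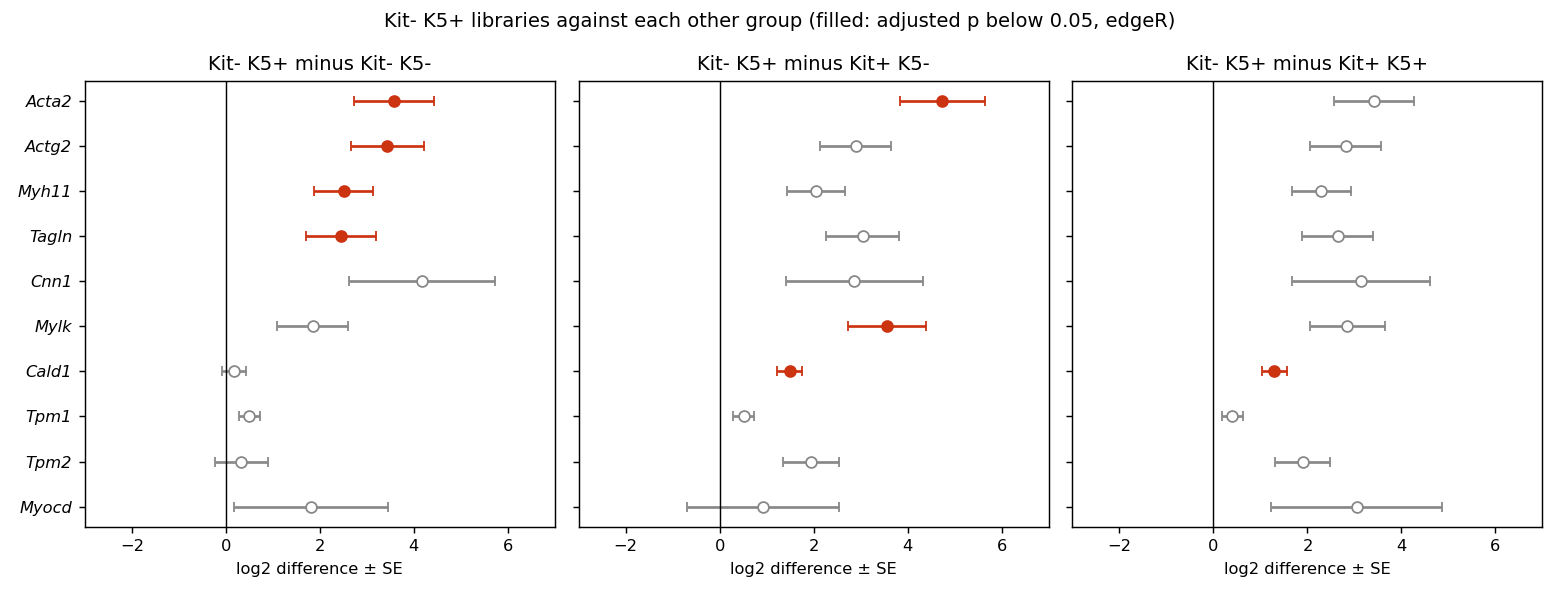
Log2 difference with its standard error for each gene in 3 comparisons, all written as Kit- K5+ minus the other group, filled where the adjusted p is below 0.05. The 3 panels share the Kit- K5+ libraries and are not separate evidence. Acta2 lies at 3.58 and 4.74 in the panels against Kit- K5- and Kit+ K5- cells, and Cald1 lies near 0 against Kit- K5- cells and is filled in both other panels.

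Cald1 also separated the groups that share no Kit- K5+ library. Kit+ K5- cells had less of it than Kit- K5- cells (-1.32 ± 0.26, adjusted p = 0.00326), the only member called there, beside 11.1% of the genes tested that were lower. Mylk at -1.72 ± 0.78 (adjusted p = 0.14) and Tpm2 at -1.61 ± 0.59 (adjusted p = 0.0678) did not pass, and with the run as a block Mylk did (-1.80 ± 0.41, adjusted p = 0.00547), which made 2 of 10 lower beside 14.9% of the genes tested. Between Kit+ K5+ and Kit- K5- cells Cald1 was again the only member called (-1.12 ± 0.26, adjusted p = 0.0068), beside 14.5% of the genes tested that were lower. Both calls of Cald1 held on leaving out each library in turn, with differences from -1.49 to -1.20 and from -1.31 to -0.94. Leaving out all 4 libraries of run 2 ended both calls (-1.21, adjusted p = 0.115, and -1.05, adjusted p = 0.115), and leaving out run 1 ended that between Kit+ K5+ and Kit- K5- cells (-0.90, adjusted p = 0.0548). Both comparisons share the Kit- K5- libraries with their high mesenchymal sum, and the part of those cells in the Cald1 level was not tested.

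Within Kit+ cells, 0 of the 10 genes differed between K5+ and K5- cells by edgeR, DESeq2 or limma-voom, and 0 had an unadjusted p below 0.05 by edgeR. There 0% of all genes passed, while 1161 of 17030 had an unadjusted p below 0.05. The estimate for Acta2 was 1.32 ± 0.81 (adjusted p = 0.783), with run values of 2.997, 0.74 and 0.20. Cald1 at 0.19 ± 0.26 and Tpm1 at 0.10 ± 0.22 were near level, and Myh11 was at -0.24 ± 0.61. The median of the 10 was 0.09, beside -0.04 over all genes tested.

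The difference between the K5 effects in Kit+ and in Kit- cells was tested directly, and 0 of the 10 genes passed with edgeR, beside 4.02% of the genes tested. Unadjusted, 2 of the 10 had p below 0.05. These were Actg2 (-3.35 ± 1.04, adjusted p = 0.0942) and Myh11 (-2.75 ± 0.87, adjusted p = 0.10). DESeq2 called both, with adjusted p of 0.0201 and 0.0301. With the run as a block, for comparison only, Myh11 passed (adjusted p = 0.048), beside 3.49% of the genes tested that passed in that direction. That the actins and the myosin rose with K5 in Kit- cells and not in Kit+ cells is therefore not shown to be a difference between Kit- and Kit+ cells by the edgeR test.

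Of 18 further genes of the smooth muscle contractile apparatus, 17 were tested. Between Kit- K5+ and Kit- K5- cells 3 rose and 1 fell, beside 7.38% and 9.1% of all genes tested, with a median of 0.57 beside 0.04 over all genes tested. The potassium channel subunit Kcnmb1 was at 5.75, 1.92 and 4.40 CPM in Kit- K5+ libraries and at 0.0656, 0 and 0 CPM in Kit- K5- libraries (adjusted p = 0.00183), with 0.129 to 1.59 CPM in the Kit+ libraries. Synpo2, an actin-binding protein of the Z-disc and dense bodies, was at 36.5, 29.4 and 23.5 CPM in Kit- K5+ libraries, above the 2.49 to 14.3 CPM of the other 9. It rose against Kit- K5- cells by 1.64 ± 0.46 (adjusted p = 0.027), against Kit+ K5- cells by 3.05 ± 0.49 (adjusted p = 0.0152), and its value in Kit+ K5+ minus Kit- K5+ cells was -2.66 ± 0.48 (adjusted p = 0.0363). Synpo2 thus passed in all 3 comparisons with Kit- K5+ cells, which share those libraries, and was even across them. Csrp1, a LIM protein of the actin cytoskeleton, rose by 1.20 ± 0.37 against Kit- K5- cells (adjusted p = 0.0411), from 465, 236 and 110 CPM against 107 to 139 CPM. With the run as a block 5 of the 17 rose, Pgm5 and Lpp added, beside 11% of the genes tested.

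Des was the gene that fell, by -4.01 ± 1.132 (adjusted p = 0.0278), from 15.1, 9.12 and 6.02 CPM in Kit- K5- libraries. Against Kit+ K5- cells 2 of the 17 rose and 0 fell, Synpo2 and Pgm5 (5.12 ± 1.05, adjusted p = 0.0253), the latter a component of muscle adhesion sites, beside 1.17% of the genes tested that rose. Between Kit+ K5+ and Kit- K5+ cells 3 were lower with Kit and 0 higher, Synpo2, Pgm5 (-5.08 ± 1.04, adjusted p = 0.0458) and the muscle kinase Speg (-3.36 ± 0.61, adjusted p = 0.0363), beside 0.323% of the genes tested that were lower. Pgm5 was at 46.3, 10.9 and 4.02 CPM in Kit- K5+ libraries, at 3.06 to 5.18 CPM in Kit- K5- and at 0.0964 to 1.48 CPM in Kit+ libraries. As for Acta2, library 1 was the highest and library 3 the lowest of the Kit- K5+ libraries.

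Of 11 transcription factors tied to smooth muscle genes, 10 were tested, and 0 rose and 4 fell with K5 in Kit- cells, beside 7.38% of all genes tested that rose and 9.1% that fell. Serum response factor itself, Srf, was at 190, 97.7 and 144 CPM in Kit- K5+ libraries and at 65.4 to 201 CPM in the other 9. The MRTF coactivators Mkl1, at 70.1 to 91.8 CPM, and Mkl2, at 200 to 235 CPM in Kit- K5+ libraries, were close to their levels elsewhere, with K5 differences in Kit- cells of 0.02 ± 0.25 and 0.32 ± 0.19. All 3 were highest in library 1 and lowest in library 2 of the group, and ranged far less than Acta2. With the run as a block, Srf passed with K5 in Kit- cells (0.58 ± 0.18, adjusted p = 0.0321). Gata6 (-4.49 ± 0.57, adjusted p = 0.000179), Klf4 (-2.06 ± 0.42, adjusted p = 0.00487), Mef2d (-0.90 ± 0.26, adjusted p = 0.034) and Mef2c (-1.18 ± 0.38, adjusted p = 0.0495) fell. Beside these, 11 of 12 mesenchyme markers and 7 of 9 tested pericyte and vascular markers fell in the same comparison, and their part in the 4 factors was not tested. In the other comparisons of Kit- K5+ cells 0 of the 10 factors passed by edgeR. Tead1, a partner of the YAP coactivator, was at 1.06 ± 0.33 against Kit+ K5- cells (adjusted p = 0.0989). With the block Tead1 passed there (adjusted p = 0.00462) and in Kit+ K5+ minus Kit- K5+ cells (-0.84 ± 0.19, adjusted p = 0.0301).

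The non-muscle counterparts of the same proteins are the forms that most cells carry. Of 13, between Kit- K5+ and Kit- K5- cells 1 rose, the non-muscle myosin heavy chain Myh9 (0.73 ± 0.22, adjusted p = 0.0352), and 1 fell, the tropomyosin Tpm3 (-0.68 ± 0.22, adjusted p = 0.0474), beside 16.5% of all genes tested that passed either way. Their median was 0.32, beside 2.15 for the 10 smooth muscle genes and 0.04 over all genes tested. With the block 2 rose and 4 fell, beside 11% and 12.8% of the genes tested. Tagln2 is the broadly expressed relative of Tagln. Kit- K5+ cells had less of it than Kit+ K5- cells (-2.18 ± 0.36, adjusted p = 0.0152), and Kit+ K5+ cells had more of it than Kit- K5+ cells (1.78 ± 0.35, adjusted p = 0.0407). Its mean was 39.5 CPM in Kit- K5+ libraries, 135 CPM in Kit+ K5+ libraries and 179 CPM in Kit+ K5- libraries. Beta-actin, Actb, was at 4663, 3395 and 2411 CPM in Kit- K5+ libraries 1, 2 and 3 and at 2255 to 3274 CPM as means of the other groups. Library 1 was the highest and library 3 the lowest of these libraries for 6 of the 13 genes, beside 19.2% of the genes tested. Cnn2 was among them at 329, 146 and 104 CPM. Tpm3 shares 62.4% of its 50-base stretches with other genes' transcripts, so that its counts are uncertain, while Actg2, Cnn1, Cald1, Tpm1 and Tpm2 share none.

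Genes whose profile over the 12 libraries was most like that of Acta2 were ranked by the root-mean-square difference of centred log2 CPM, among 11564 genes with a mean of at least 5 CPM in a group. The nearest were Lgr6 (0.75), a receptor of R-spondins, Fmod (0.77), the collagen-binding fibromodulin, Cryab (0.84), a small heat shock protein, and Msrb3 (0.94), a methionine sulfoxide reductase. Next came the laminin chains Lamb3 (0.95) and Lama3 (0.98), the smooth muscle regulatory light chain Myl9 (0.98), the salivary protein gene Smr3a (0.99) and Tmem220 (1.04). The median over all genes tested, without the limit on CPM, was 1.85. Of the members, Actg2 (0.86), Mylk (0.94) and Tagln (1.00) were as near, followed by Myh11 (1.15) and Tpm2 (1.18). Cald1 (1.36), Tpm1 (1.46), Cnn1 (1.62) and Myocd (2.05) were farther. A profile without any difference between libraries would lie at 1.72, so that Cnn1 was little nearer than that and Myocd was farther.

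Lgr6 stood at 106, 29.4 and 3.83 CPM in Kit- K5+ libraries 1, 2 and 3 and at 2.18 to 12.6 CPM in the other 9. Myl9, the substrate light chain of the kinase Mylk, stood at 301, 92.7 and 38.5 CPM and at 6.34 to 59.7 CPM elsewhere. Lama3 stood at 205, 83.8 and 67.0 CPM, above the 5.71 to 27.6 CPM of the other 9 in every Kit- K5+ library, as did Fmod, Cryab and Lamb3. These genes were chosen for their likeness to Acta2 over these libraries, so that their shared order is a description.

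**Figure D5:**
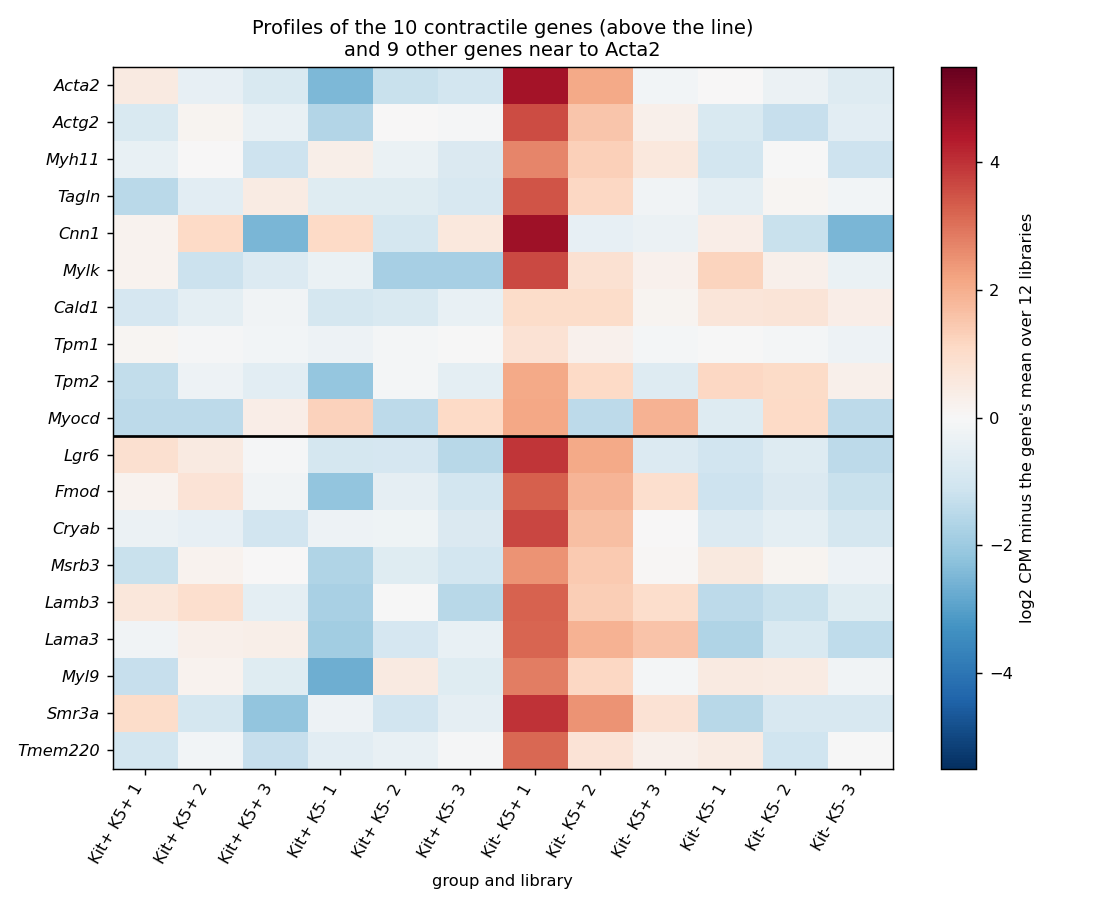
Log2 CPM minus the gene's mean over 12 libraries, as colour, for the 10 contractile genes (above the line) and 9 other genes near to Acta2, with libraries in columns by group. Red peaks at Kit- K5+ library 1 in every gene shown, and Cald1 and Tpm1 are pale throughout.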

How the data were processed

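The deposited values are whole-number read counts per gene symbol. Per the labels' protocols reads were aligned to GRCm38 with STAR, and the submitters' processing notes name STAR 2.4.2a, featureCounts 1.4.6-p3, Picard 1.129 and FastQC. The sources used here do not give the annotation release, the strand setting or the treatment of multimapping reads. The matrix and the 12 single tables differed in 0 cells.

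Counts were fitted with edgeR 4.0.16 (R 4.3.3, limma 3.58.1): filterByExpr, TMM scaling and 1 quasi-likelihood fit of all 12 libraries with 8 residual degrees of freedom. Adjusted p-values are from edgeR's quasi-likelihood test with Benjamini-Hochberg adjustment over 17030 genes, called below 0.05. Standard errors are those implied by the F statistic. Log2 CPM used a prior count of 2. The code was tested on simulated data. Exon lengths and gene positions are from GENCODE M21 on GRCm38. The 0 counts carry a limit of 3 counts, which covers counting error only.

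Members, lists and comparisons were chosen with earlier results of these data known. Named were the 10 members, the gate genes, up to 4 called genes per list with the smallest adjusted p in each comparison with Kit- K5+ cells or else up to 2 of the highest mean, any transcription factor, and the 10 nearest genes to Acta2, of which 1 is not reported here. Not every gene this rule allows is written out. The marker genes Rgs5, Oxtr, Krt14, Trp63, Cspg4, Col1a1 and Pdgfra, and Actb, Cnn2 and Lpp, were named after their values were seen.

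The labels do not call runs batches. Deviations of same-run libraries from the means of their groups were correlated, with r from 0.153 to 0.207 (Kit- groups), 0.108 to 0.156 (K5+ groups), 0.299 to 0.408 (K5- groups), 0.263 to 0.369 (Kit+ groups) and 0.201 to 0.234 (Kit+ K5+ with Kit- K5-). The run was taken to pair the libraries there. For Kit+ K5- with Kit- K5+, r was 0.0928 to 0.365, which holds the lowest r but overlaps the other ranges. No clear line separates this pair of groups from the others. The block is given for comparison only there and for the interaction. Alternatives were other scalings, filters, DESeq2 1.42.0, limma-voom, the run as a block, fits of only the groups compared, and fits without each library or run.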

Additional observations from a re-analysis of the deposited data

How the results depend on the processing

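Counts of members called moved with several settings. Shares over all genes tested are given only for the main fit and for the run as a block. Counts under the other settings are therefore not read as particular to these genes. In the order K5 in Kit- cells, Kit in K5+ cells, Kit in K5- cells and Kit- K5+ against Kit+ K5- cells, the main counts were 4, 1, 1 and 3. They were 1 for Kit+ K5+ against Kit- K5- cells and 0 for the interaction and for K5 in Kit+ cells. Without a filter on low counts, Kit in K5+ cells gave 8, Kit in K5- cells 4, Kit- K5+ against Kit+ K5- 8, Kit+ K5+ against Kit- K5- 3, the interaction 4 and K5 in Kit+ cells 1. DESeq2 gave 7, 2, 7, 2 and 2 for Kit in K5+ cells, Kit in K5- cells, the opposite single positives, the doubles and the interaction. Limma-voom gave 2 for K5 in Kit- cells, 2 for Kit in K5- cells and 1 for the opposite single positives.

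With the replicate block the counts were 4 for Kit in K5+ cells, 2 for Kit in K5- cells, 5 for the opposite single positives and 1 for the interaction (Myh11, -2.60, adjusted p = 0.048). The last 2 counts are for comparison only. The block without Kit- K5+ library 1 gave 1 for K5 in Kit- cells. The block changed no other call of a member beyond those named in the text. Scaling to general epithelial genes moved the median of all genes by -1.74, -0.39, -2.07, 0.33, -2.13 and 1.67 (K5 in Kit-, Kit in K5+, Kit in K5-, single positives, doubles, interaction). It gave 4 calls for K5 in Kit- cells, of which 3 were lower, and 2, 7, 7 and 1 for Kit in K5+, Kit in K5-, the doubles and the interaction. Differences that turned were -1.60 for Cald1, -1.26 for Tpm1 and -1.49 for Tpm2 (K5 in Kit-), -1.75 for Myh11 (Kit in K5-), and -2.13 for Acta2, -2.0 for Myh11 and -2.06 for Tpm1 (doubles). Library size alone gave 2 for the doubles.

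Without run 1 the counts were 1, 0, 2, 0 and 0 (K5 in Kit-, Kit in K5+, Kit in K5-, single positives, doubles). Without run 2 all 5 were 0. Without run 3 Kit in K5+ cells gave 0. Fitting only the groups compared gave 0, 2, 0 and 2 for Kit in K5+, Kit in K5-, the single positives and the doubles. Leaving out each library gave 0 to 5 for K5 in Kit- cells (2 without Kit- K5- library 1 or 3), 0 to 2 for Kit in K5+ cells, 0 to 6 for the single positives, 0 to 1 for the interaction, and no change elsewhere. The median ratio of highest to lowest Kit- K5+ library stayed between 8.96 and 11.2 under all scalings. The cause of these shifts was not tested, except that fewer libraries leave fewer degrees of freedom. Depth limits Myocd and Cnn1 most.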
